A study of Mus musculus with 72 samples.

Results

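Zbed6, its host gene Zc3h11a, and Nbeal1 were followed in mice conceived by in vitro fertilization (IVF), in offspring sired by such mice, and in their natural counterparts. These 3 genes, of 37108 gene symbols in the 7 count tables, were chosen by the levels of Zbed6 and Nbeal1, which were higher in IVF testis at E18.5 and lower at 12 weeks, and because Zbed6 lies inside an intron of Zc3h11a. The values at those 2 ages therefore chose the genes and are described below without a test. All 3 genes passed the filter on low counts in all 7 tables. RNA sequencing covered 72 libraries, each from whole tissue. F1 animals had CF-1 mothers and SJL/B6 fathers heterozygous for a GFP transgene. Naturals came from mating in the natural estrous cycle without embryo transfer. IVF animals came from superovulated CF-1 females, with fertilization and culture to the blastocyst in vitro and transfer to pseudopregnant recipients, so that superovulation, culture and transfer go together in this group. F2 animals came from 12-week-old F1 males mated with wild-type CF-1 females, and an F2 animal named IVF here was sired by an IVF-conceived male and was itself conceived by mating. F1 testes were from 4 naturals and 6 IVF fetuses at E18.5, 5 and 5 males at 12 weeks, and 4 and 6 males at 39 weeks. The F2 tissues, all at 12 weeks, were testes of 5 naturals and 7 IVF males, livers of 5 and 5 males and of 5 and 6 females, and ovaries of 4 and 5 females.

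ZBED6 is a transcription factor that derives from a domesticated DNA transposon, is found in placental mammals, and is known as a repressor of Igf2, the gene of a fetal growth factor. Its reading frame lies in the first intron of Zc3h11a, which encodes a zinc finger protein of the machinery that exports mRNA from the nucleus, and both are transcribed from the same strand. NBEAL1 belongs to the BEACH domain family of large proteins of membrane traffic, and is known from the Golgi apparatus, where it takes part in the sterol-dependent processing of SREBP2 and so in LDL receptor expression. All 3 genes are on chromosome 1, where 73281534 bases lie between Nbeal1 and Zc3h11a.

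In mm10 coordinates (GRCm38, RefSeq), Zbed6 occupies chr1:133655879-133660885 on the minus strand, and is annotated as 1 exon of 5007 bases. Zc3h11a spans chr1:133619862-133661399 on the same strand with 18 exons, and Nbeal1 spans chr1:60178740-60338328 on the plus strand with 55 exons and a transcript of 15731 bases. Intron 1 of both basic Zc3h11a transcripts contains the whole of Zbed6, with 0 of its bases in a Zc3h11a exon. Unspliced Zc3h11a RNA would thus give reads on Zbed6 that a stranded count per gene cannot tell apart from Zbed6 mRNA, so the Zbed6 values below are counts over that stretch of the intron. The annotated starts of Zbed6 and Zc3h11a lie 514 bases apart. The 250 bases before each RefSeq start are shown because the genes are compared for moving together. For Nbeal1 the start of the promoter table lies inside the gene span given above. Capitals mark each CG dinucleotide, and each window is written along the gene's own strand.
Zbed6, chr1:133660886-133661135, minus strand: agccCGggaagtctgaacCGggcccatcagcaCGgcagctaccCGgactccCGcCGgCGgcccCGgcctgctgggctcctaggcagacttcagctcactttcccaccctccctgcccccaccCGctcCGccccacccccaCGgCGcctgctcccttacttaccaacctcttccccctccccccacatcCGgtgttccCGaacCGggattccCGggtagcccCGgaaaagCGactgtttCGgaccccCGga
Zc3h11a, chr1:133661400-133661649, minus strand: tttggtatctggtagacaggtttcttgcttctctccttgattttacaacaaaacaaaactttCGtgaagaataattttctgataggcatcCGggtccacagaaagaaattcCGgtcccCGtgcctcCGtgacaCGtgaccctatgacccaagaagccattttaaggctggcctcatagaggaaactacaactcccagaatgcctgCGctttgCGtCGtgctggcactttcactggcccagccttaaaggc
Nbeal1, chr1:60180349-60180598, plus strand: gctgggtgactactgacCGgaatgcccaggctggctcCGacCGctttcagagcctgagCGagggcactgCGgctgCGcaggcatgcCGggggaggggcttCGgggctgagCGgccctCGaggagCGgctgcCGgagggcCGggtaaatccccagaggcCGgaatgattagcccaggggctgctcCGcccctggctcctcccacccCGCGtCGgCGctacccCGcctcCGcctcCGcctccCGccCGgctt
The window of Zbed6 lies within intron 1 of Zc3h11a. It holds 20 CG dinucleotides and 69.6% GC, that of Nbeal1 holds 24 and 73.2%, and that of Zc3h11a holds 9 and 48%, beside medians of 6 and 52.4% over 32851 mouse promoters of the same length. The letters GCTCGC, known as the core of the ZBED6 binding motif, or their reverse complement GCGAGC, occurred in none of the 3 windows and in 11.4% of all promoters. That absence describes these windows only.

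Total counts per library ran from 543745 to 90441392. At E18.5 the totals did not overlap between groups, with 2904727 to 4869139 in naturals and 8500054 to 15745480 in IVF, so depth and group cannot be told apart there. In F2 male liver the IVF 2 and IVF 3 libraries held only 2137355 and 543745 counts. Of the pairs of libraries within groups, 3 were nearly identical, the natural 1 and 2 libraries of 39-week testis, the natural 1 and 2 libraries of F2 testis and the IVF 3 and 4 libraries of F2 testis, with a chi-square per degree of freedom of 1.53, 1.85 and 1.42, while other pairs within those groups lay at 3.46 or above. They differed by more than sampling noise, but this value cannot decide whether a pair comes from the same animal. The labels number the libraries separately, and they were kept as separate samples. Summing each pair lowered the genes called in F2 testis from 345 to 134. The study's methods name individuals of several litters, but no label assigns a library to a litter, so the spread between libraries may be partly shared within litters. Adult testes expressed spermatid markers at a summed level of 9826 to 25711 CPM (read counts relative to the TMM-scaled library total), which were at 0.929 to 4.66 CPM at E18.5, and livers and ovaries expressed their own defining markers, the summed hepatocyte markers at 63892 to 231186 CPM and the summed oocyte markers at 100 to 183 CPM. In F2 male liver the spermatid markers also reached 110, 74.3 and 14.2 CPM in natural libraries 5, 1 and 4, and at most 3.51 CPM in the other 7 libraries.

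Zbed6 was highest in fetal testis and in ovary, and so was its host gene. In naturals, Zbed6 stood at 155 ± 28.3 CPM (SD, n = 4) at E18.5, 94.5 ± 5.19 CPM (n = 4) in ovary, 26.6 ± 3.14 CPM (n = 5) in F2 testis and 23.1 ± 2.20 CPM (n = 5) in F1 testis at 12 weeks. The 39-week testis (15.0 ± 14.8 CPM, n = 4), female liver (12.7 ± 5.10 CPM, n = 5) and male liver (8.14 ± 2.14 CPM, n = 5) followed. The ranges of E18.5 testis, ovary and F2 testis did not overlap, while each later neighbour in this order overlapped the next. Zc3h11a had the same order, from 324 ± 38.4 CPM at E18.5 and 278 ± 13.4 CPM in ovary to 64.7 ± 5.12 CPM in male liver, with the 4 tables between these lying at 79.9 to 86.7 CPM. Nbeal1 was highest in ovary, at 64.1 ± 7.03 CPM, then in E18.5 testis at 34.7 ± 7.63 CPM, and its 5 other tables had means between 11.8 and 23.6 CPM. From E18.5 testis down, each range overlapped the next. Tables were scaled separately, and the E18.5 table lists 25239 gene symbols where each of the others lists 35976. These levels across tissues are therefore descriptive. Per kilobase of transcript, on the RPKM scale, natural E18.5 testis had 73.6 ± 8.74 for Zc3h11a, 31.0 ± 5.65 for Zbed6 and 2.21 ± 0.485 for Nbeal1. In whole tissue, a smaller share of cells that express a gene and less RNA per cell cannot be told apart.

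**Figure D1:**
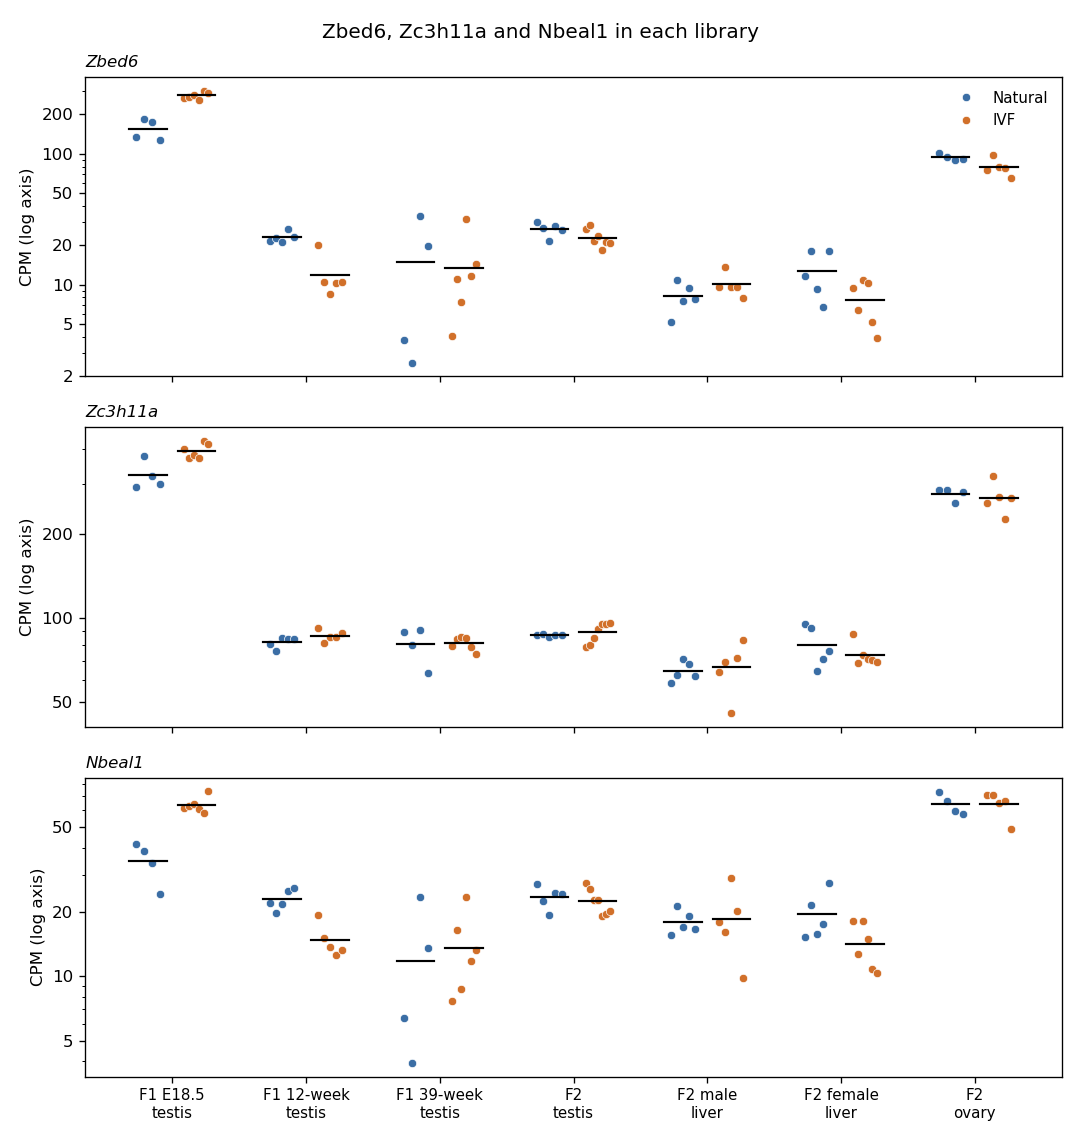
Level of Zbed6, Zc3h11a and Nbeal1 in CPM on a log axis, for each library (points) of the 7 tables, with naturals in blue and IVF in orange and the group mean as a bar. Zbed6 and Nbeal1 IVF points lie above all naturals at E18.5 and below all naturals at 12 weeks, and for both of these genes the 39-week libraries spread most.

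At E18.5, Zbed6 was at 134, 183, 175 and 128 CPM in the 4 naturals and at 268, 273, 283, 258, 304 and 293 CPM in the 6 IVF testes. All 6 IVF libraries were above every natural, as they were for 3.51% of the 15406 genes tested. The difference was 0.85 on the log2 scale (SE 0.10), or 1.80-fold. Nbeal1 was at 41.9, 38.6, 34.0 and 24.3 CPM in naturals and at 61.3, 62.6, 64.4, 60.8, 58.1 and 73.7 CPM in IVF, again without overlap, a difference of 0.86 (SE 0.12). Zc3h11a was at 294, 378, 322 and 300 CPM in naturals and at 402, 372, 382, 372, 428 and 419 CPM in IVF. The groups of Zc3h11a overlapped in the highest natural library, 4 of 6 IVF libraries were above it, and the difference was 0.29 (SE 0.08). Zbed6 differed more than its host gene here. It was chosen for its difference at this age, and Zc3h11a only as the host, so this is a description. A share of 0.818% of all genes passed the test in the higher direction at this age. Over all genes tested, the log2 fold change ran with GC content and length at this age (Spearman's rho −0.379 with GC and 0.302 with length, across genes, which are not independent replicates), and removing the GC trend left Zbed6 at 0.72 and Nbeal1 at 0.62.

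At 12 weeks the order was the other way round for Zbed6 and Nbeal1. Zbed6 was at 21.6, 22.8, 21.2, 26.7 and 23.2 CPM in naturals and at 19.9, 10.4, 8.44, 10.2 and 10.4 CPM in IVF. The IVF 1 library sat just under the lowest natural and the other 4 far below, and the difference was −0.96 (SE 0.19), with naturals 1.95-fold higher. Nbeal1 was at 22.1, 19.8, 21.8, 25.1 and 25.9 CPM in naturals and at 19.4, 15.1, 13.8, 12.7 and 13.2 CPM in IVF, a difference of −0.63 (SE 0.13), and here too the IVF 1 library was the highest of its group. All 5 IVF libraries were below every natural for both genes, as for 2.15% of the 20113 genes tested, and 0.671% of all genes passed the test in the lower direction. Zc3h11a was at 80.7, 76.3, 85.0, 84.0 and 83.9 CPM in naturals and at 91.7, 81.1, 85.5, 85.4 and 88.1 CPM in IVF. Its groups overlapped, with a difference of 0.08 (SE 0.06), opposite in sign to that of Zbed6. Removing the trend with transcript length left Zbed6 at −0.90 and Nbeal1 at −0.39.

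In either direction, 1.17% of all genes had an adjusted p under 0.05 at E18.5 and 0.746% at 12 weeks. Of 13533 genes tested at both ages, 7 were in both sets, and all 7 were higher in IVF at E18.5 and lower at 12 weeks. Zbed6 and Nbeal1 are among them by the way they were chosen, so the count is a description and no test of these genes. The others were 4932438A13Rik, Dmxl2, Prrc2c, Cep192 and Fnip1, which are named after their values were seen, with differences at E18.5 from 0.28 for Cep192 to 0.58 for Dmxl2 and at 12 weeks from −0.47 for Prrc2c to −0.30 for Fnip1. The sets depended on the processing. The 181 genes called at E18.5 were 8 without natural 4 or without IVF 6, and 1 with the GC trend removed, and the 150 called at 12 weeks were 25 without IVF 4 and 8 with the length trend removed, so that the count of 7 cannot hold with the GC trend removed, and it was not recounted under the others. The transcripts of the 7 were 5007 to 15883 bases long with 37.2% to 47.0% GC, beside medians of 3239 bases and 50.2% over the 10149 genes that were tested in every table and had an annotated transcript. Of those genes 99.7% were shorter than Nbeal1 and 0.68% had a lower GC content, while for Zbed6 these shares were 77.4% and 11.5%. Fold changes of all genes ran with length and GC at both ages (rho −0.327 and 0.174 at 12 weeks), and whether the 7 differ from other genes in either property was not tested.

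**Figure D2:**
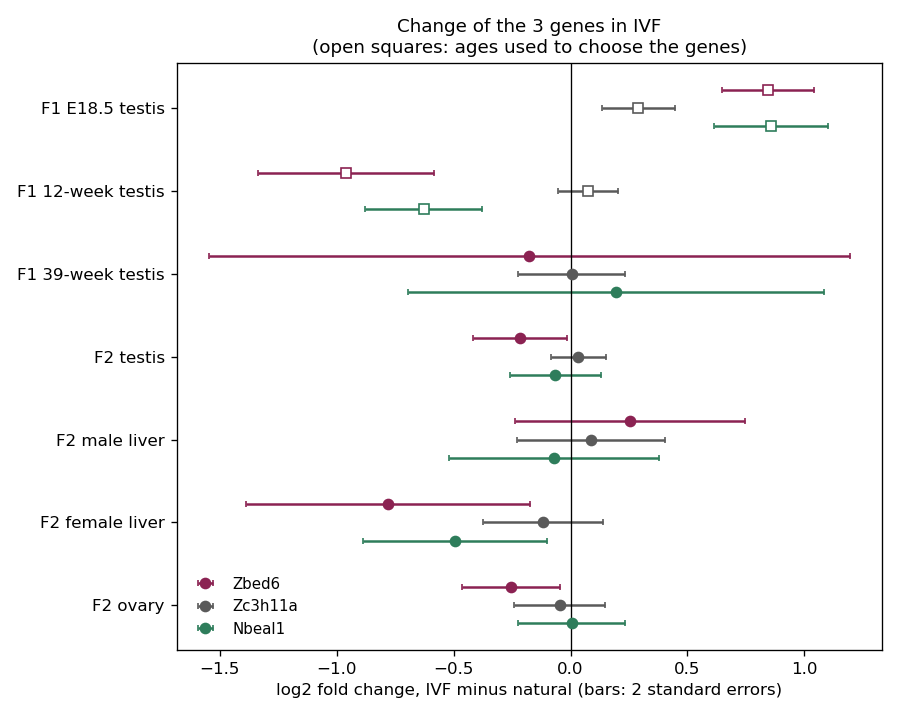
Log2 fold change of IVF minus natural for the 3 genes in each table, with bars of 2 standard errors on either side. Open squares mark the 2 ages that chose the genes, which are given without a test of these genes, and filled points the 5 tables that were tested, of which only female liver gave an adjusted p under 0.05 (Zbed6 and Nbeal1).

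At 39 weeks none of the 3 genes passed, and Zbed6 spread more between testes of a group than in any of the other 6 tables. Naturals were at 3.74, 2.53, 33.8 and 19.9 CPM, and IVF testes at 4.04, 10.95, 7.40, 31.8, 11.7 and 14.3 CPM. The groups overlapped throughout, and the difference was −0.18 (SE 0.69, adjusted p = 0.956). Nbeal1 was at 6.38, 3.92, 23.5 and 13.5 CPM in naturals and at 7.63, 16.6, 8.75, 23.6, 11.9 and 13.3 CPM in IVF, with a difference of 0.20 (SE 0.44, adjusted p = 0.925). Zc3h11a lay between 63.8 and 90.7 CPM in all 10 libraries, with a difference of 0.00 (SE 0.12, adjusted p = 0.993). At this spread, the interval of 2 standard errors for Zbed6, from −1.55 to 1.20, still holds the differences seen at both earlier ages. Leaving out 1 library moved Zbed6 between −0.63 (without IVF 4) and 0.59 (without natural 3), and Nbeal1 between −0.10 (without natural 2) and 0.76 (without natural 3). The test passed 0.00996% of all genes at this age.

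The within-group SD of Zbed6 at 39 weeks was 1.34 on the log2 scale, above that of 98.9% of the genes tested, and that of Nbeal1 was 0.833, above 92.6%, while that of Zc3h11a was 0.156, above only 9.46%. The spread moved with a property of the libraries. The natural 1 and 2 libraries, the nearly identical pair, held the lowest Zbed6 levels, and their genes rose with GC content by 0.117 and 0.137 on the log2 scale for each 10 percentage points. The natural 3, natural 4 and IVF 4 libraries, with the highest Zbed6 levels, had slopes of −0.117, −0.137 and −0.121. Length slopes ran the opposite way, at −0.127 and −0.134 per doubling of length in natural 1 and 2 and at 0.153, 0.108 and 0.144 in the other 3. Spermatid markers, which mark late germ cells, summed to 25097 and 25711 CPM in natural 1 and 2, to 14621, 12235 and 12768 CPM in natural 3, natural 4 and IVF 4, and to between 17094 and 19370 CPM in the other 5 libraries. With the GC trend removed, the within-group SD of Zbed6 was 1.27. The part of length and of spermatid RNA in this spread was not tested.

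**Figure D3:**
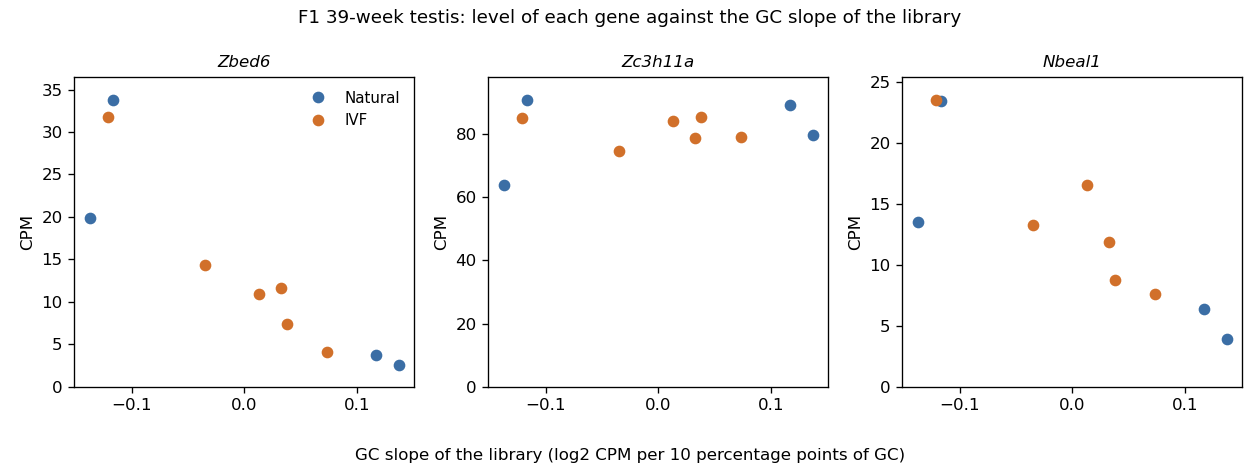
Level in CPM of the 3 genes in each 39-week testis library, against the slope of that library's deviations from its group means on GC content (log2 per 10 percentage points), with naturals in blue and IVF in orange. Zbed6 and Nbeal1 are lowest in the natural libraries with slopes of 0.117 and 0.137 and highest where the slope is near −0.12, and Zc3h11a stays between 63.8 and 90.7 CPM.

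In F2 testis, at the same age as the second F1 table, Zbed6 was at 30.2, 27.0, 21.7, 28.2 and 26.0 CPM in naturals and at 26.7, 28.3, 21.5, 23.6, 21.1 and 20.7 CPM in 6 of the 7 testes of IVF-sired males, with IVF 5 the lowest of all, at 3.695 RPKM beside 4.13 to 5.66 RPKM in the other IVF testes. In 4 of 7 IVF libraries Zbed6 was below every natural, the groups overlapped, and the difference was −0.22 (SE 0.10, adjusted p = 0.338). It was smaller than the −0.96 of F1 testis at the same age, a difference between tables that was not tested. Nbeal1 ran from 19.4 to 27.1 CPM in naturals and from 19.2 to 27.3 CPM in IVF, with a difference of −0.06 (SE 0.10, adjusted p = 0.834). Zc3h11a differed by 0.03 (SE 0.06, adjusted p = 0.86), with a natural range as narrow as 85.1 to 87.4 CPM and an IVF range of 78.6 to 95.8 CPM around it. None of the 3 genes passed a test that passed 1.61% of all genes. The interval of 2 standard errors reached from −0.42 to −0.02 for Zbed6 and from −0.26 to 0.13 for Nbeal1.

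F2 ovary had a Zbed6 difference of a similar size. Naturals were at 102, 94.0, 89.9 and 92.1 CPM, and ovaries of IVF-sired females at 75.2, 98.0, 78.9, 78.4 and 65.3 CPM. All but the IVF 2 library were below every natural, and the difference was −0.26 (SE 0.10, adjusted p = 0.439). Zc3h11a (−0.05, SE 0.10, adjusted p = 0.883) and Nbeal1 (0.01, SE 0.11, adjusted p = 0.991) did not pass either. By edgeR 0% of the 16502 genes of this table had an adjusted p under 0.05, 1757 had an unadjusted p under 0.05, and DESeq2 gave 153 calls. Oocyte markers summed to 157 to 183 CPM in naturals and 100 to 152 CPM in IVF, without overlap. Markers of the Leydig list summed to 11753 to 22276 CPM and 22113 to 31175 CPM, and granulosa markers to 470 to 653 CPM and 465 to 568 CPM. Their part in the Zbed6 values of ovary was not tested.

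Female liver was the only table outside the choice in which the genes passed. Zbed6 was at 11.6, 17.9, 9.32, 6.78 and 18.1 CPM in naturals and at 9.36, 6.38, 10.9, 10.3, 5.20 and 3.89 CPM in IVF-sired females. The groups overlapped, 3 of 6 IVF libraries were below every natural, and Zbed6 fell by 0.78 on the log2 scale (SE 0.30, adjusted p = 0.044). Nbeal1 was at 15.2, 21.6, 15.8, 17.7 and 27.5 CPM in naturals and at 18.1, 12.8, 18.2, 15.0, 10.8 and 10.4 CPM in IVF, and fell by 0.49 (SE 0.20, adjusted p = 0.0477). Zc3h11a was at 79.9 ± 13.4 CPM (n = 5) in naturals and 73.7 ± 6.85 CPM (n = 6) in IVF, and did not pass (−0.12, SE 0.13, adjusted p = 0.467). Of all 12525 genes tested in female liver, 49% passed, 25.4% higher and 23.6% lower in IVF, so that 2 of 3 genes past the threshold is near the background.

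Both calls depended on single libraries and on the GC trend. The log2 fold change of all genes rose with GC content in female liver (Spearman's rho 0.72, across genes), and with that trend removed Zbed6 was at −0.11 (adjusted p = 0.834) and Nbeal1 turned to 0.45 (adjusted p = 0.116), while Zc3h11a turned to 0.42 and passed (adjusted p = 0.0358). With the length trend removed, Zbed6 was at −0.64 (adjusted p = 0.0724) and Nbeal1 at 0.00225 (adjusted p = 0.993). The call of Zbed6 was lost without natural 1 (adjusted p = 0.0621), natural 2 (0.135), natural 5 (0.157), IVF 2 (0.0763), IVF 5 (0.0897) or IVF 6 (0.0806). That of Nbeal1 was lost without natural 2 (adjusted p = 0.0992), natural 4 (0.0669), natural 5 (0.228), IVF 2 (0.0764), IVF 4 (0.0624), IVF 5 (0.102) or IVF 6 (0.102). Cell type markers also moved between these groups. The 4 hepatocyte markers summed to 148490 to 231186 CPM in naturals and 98103 to 117347 CPM in IVF, with 2 of 4 passing as lower. The 3 erythroid markers summed to 440 to 744 CPM and 144 to 344 CPM, with 2 of 3 passing as lower. Their part in the lower Zbed6 and Nbeal1 was not tested.

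In male liver none of the 3 genes passed, in a test that 34.4% of all genes passed, 16.1% higher and 18.4% lower in IVF. Zbed6 was at 5.15, 10.8, 7.501, 9.41 and 7.82 CPM in naturals and at 9.53, 13.7, 9.64, 9.52 and 7.84 CPM in IVF-sired males, the third of these resting on 4 counts. The difference was 0.25 (SE 0.25, adjusted p = 0.453). Nbeal1 was at 15.6 to 21.3 CPM in naturals and 9.87 to 28.9 CPM in IVF, the highest value resting on 12 counts (−0.07, SE 0.22, adjusted p = 0.836), and Zc3h11a differed by 0.09 (SE 0.16, adjusted p = 0.71). Fold changes ran against GC content in this sex (rho −0.608), and with that trend removed Nbeal1 was at −0.75 (adjusted p = 0.0221), Zbed6 at −0.29 and Zc3h11a at −0.35. In a fit of both livers, the difference of Zbed6 in males minus that in females was 1.03 (SE 0.41, adjusted p = 0.0352), in a test that passed 54% of all genes. It was −0.19 (adjusted p = 0.744) with the GC trend removed. Median depth and scaling factors also differed between the groups in opposite directions in the sexes, and their part was not tested. Without 1 library the adjusted p rose past the threshold for male natural 1 (0.0726), male natural 3 (0.0573), male natural 5 (0.0533), male IVF 1 (0.0529), male IVF 2 (0.0661), female natural 2 (0.0806), female natural 5 (0.0901), female IVF 5 (0.0591) and female IVF 6 (0.0586). Nbeal1 (0.41, SE 0.31, adjusted p = 0.259) and Zc3h11a (0.19, SE 0.20, adjusted p = 0.419) did not pass, and with the GC trend removed they turned to −1.19 (adjusted p = 0.00293) and −0.78 (adjusted p = 0.00722), both past the threshold.

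Because Zbed6 sits in an intron of Zc3h11a, its counts were also taken relative to those of the host gene in the same library, which cancels depth. At E18.5 naturals had 45.7, 48.5, 54.4 and 42.6 Zbed6 counts per 100 Zc3h11a counts, and IVF testes had 66.6, 73.3, 74.2, 69.4, 71.0 and 69.9. The groups did not overlap, and the log2 ratio was higher in IVF by 0.57 (SE 0.08). At 12 weeks naturals had 26.7, 29.8, 24.9, 31.8 and 27.7, and IVF testes 21.7, 12.9, 9.87, 12.0 and 11.8, a difference of −1.10 (SE 0.20), again without overlap. As these ages chose the genes, the ratios there are a description. At 39 weeks the ratio ran from 3.17 to 37.4 and overlapped between groups.

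**Figure D4:**
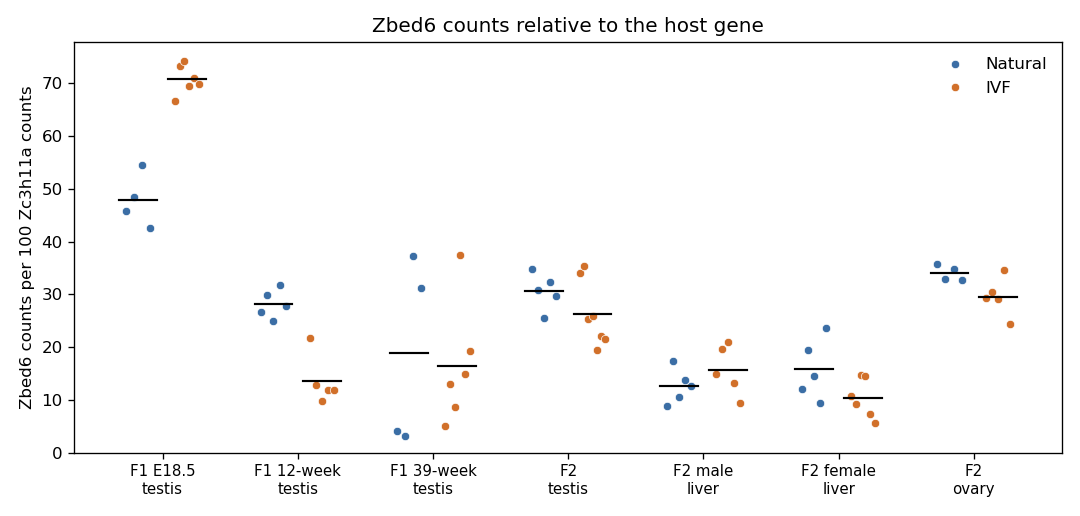
Zbed6 counts per 100 Zc3h11a counts in each library (points), with naturals in blue, IVF in orange and group means as bars. The ratio is highest in E18.5 testis, at 42.6 to 54.4 in naturals and 66.6 to 74.2 in IVF, and lowest in livers and in single 39-week testes. The E18.5 table lists another set of gene symbols than the others, so this order across tables is descriptive.

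None of the 5 tested tables gave a difference of the ratio that passed. In ovary, naturals had 34.0 ± 1.48 Zbed6 counts per 100 Zc3h11a counts (n = 4) and IVF-sired females 29.5 ± 3.65 (n = 5), a log2 difference of −0.21 (SE 0.09) with a two-sided exact permutation p of 0.0476 and an adjusted p of 0.222 over the 5 tables. Female liver had 15.8 ± 5.69 and 10.4 ± 3.76 (−0.63, SE 0.32, exact permutation p = 0.0887, adjusted p = 0.222). F2 testis had 30.7 ± 3.44 and 26.2 ± 6.20 (−0.25, SE 0.15, exact permutation p = 0.149, adjusted p = 0.248). In male liver (0.33, SE 0.28) and 39-week testis (0.27, SE 1.01) the exact permutation p was 0.278 and 0.762. With these groups the smallest p the test allows was 0.00126 in F2 testis and 0.00794 in ovary.

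Within groups, where the difference between IVF and natural plays no part, Zbed6 and Nbeal1 varied together in several tables. Zbed6 was related to Nbeal1 and to Zc3h11a in each table, 14 relations over which p-values were adjusted. Of the 10 in the 5 tables outside the choice, 3 passed an exact permutation test within groups, and those at E18.5 and 12 weeks are given as values. Zbed6 and Nbeal1 had r = 0.928 in F2 testis (adjusted permutation p = 0.00236, n = 12) and r = 0.966 in 39-week testis (adjusted permutation p = 0.00243, n = 10). In female liver r was 0.836 (adjusted permutation p = 0.0268, n = 11). Spearman's rho was 0.909, 0.964 and 0.855 in these tables, with adjusted permutation p of 0.00373, 0.00729 and 0.0132. Without the 2 libraries farthest from the median of Zbed6, r was 0.931, 0.941 and 0.89, and each still passed (adjusted permutation p = 0.0185, 0.0292 and 0.0304). With the GC trend removed, r was 0.887, 0.951 and 0.823, each again past the threshold. In that setting female liver did not pass by Spearman's rho (0.673, adjusted permutation p = 0.177). Nor did it pass without the 2 farthest libraries (r = 0.708, adjusted permutation p = 0.184). These relations were not computed with the length trend removed. Counting each nearly identical pair as 1 library, an alternative chosen after seeing the data, gave 0.948 in F2 testis and 0.963 at 39 weeks (adjusted permutation p = 0.00851 for both). Without the 2 farthest libraries as well, the adjusted permutation p was 0.0405 and 0.0583.

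The remaining tables gave weaker relations of Zbed6 with Nbeal1. At 12 weeks r was 0.801 (n = 10) and was 0.249 without the 2 libraries farthest from the median of Zbed6, so that it rests on those. In ovary r was 0.758 (adjusted permutation p = 0.115, n = 9), at E18.5 0.398 (n = 10) and in male liver 0.383 (adjusted permutation p = 0.29, n = 10). With its host gene, Zbed6 had r = 0.824 and rho = 0.855 at E18.5, and r was 0.714 there without the 2 farthest libraries. In the 5 tables outside the choice the relation of Zbed6 with Zc3h11a did not pass and ran from −0.669 in F2 testis to 0.593 in ovary. Over the 7 tables the mean r of Zbed6 was 0.724 with Nbeal1 and 0.239 with Zc3h11a.

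**Figure D5:**
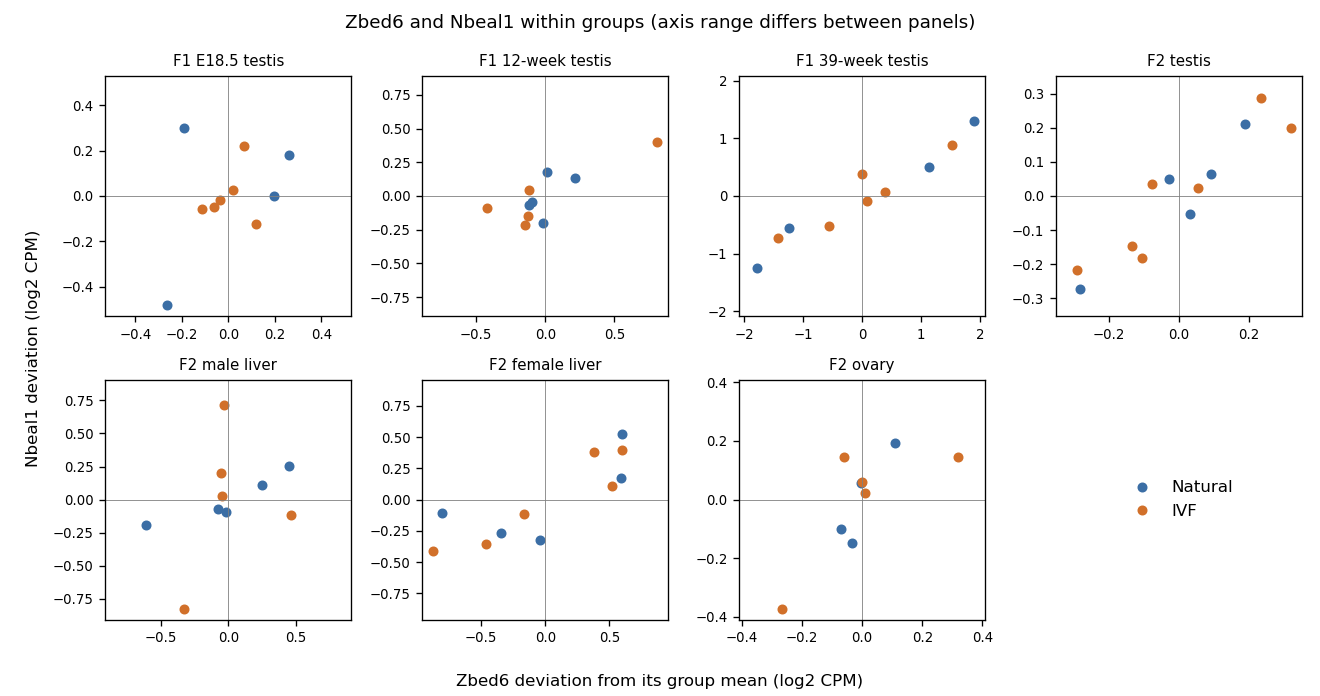
Deviation of Nbeal1 from its group mean against that of Zbed6, both in log2 CPM, for each library of the 7 tables. Axis ranges differ between panels. The points lie along a rising line in 39-week testis (r = 0.966), F2 testis (r = 0.928) and female liver (r = 0.836), and scatter in E18.5 testis and male liver.

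Other genes varied with Zbed6 as closely. Among 10169 genes tested in every table, the highest mean r with Zbed6 over the 7 tables was that of Nf1 (0.76), the neurofibromin gene, then Kmt2d (0.757), which encodes a histone methyltransferase, Aff4 (0.749), Apc (0.745) and Tmem245 (0.745). Nbeal1 ranked 9 in that order and Zc3h11a ranked 1925. For Nbeal1, Ranbp2 (0.82), which encodes a nucleoporin, Sp1 (0.807), Usp9x (0.797) and Pikfyve (0.787) were among the highest, with Zbed6 at rank 22 and Zc3h11a at rank 5102. The median mean r over all genes was near 0. The 100 genes most like Zbed6 had a median transcript length of 9587 bases and a median GC content of 43.8%, and the 100 most like Nbeal1 had 9465 bases and 43.9%, beside 3239 bases and 50.2% over all of these genes. Genes of a table share its libraries, their depth and their GC and length slopes, so these values are a description with no test.

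Of the IGF axis, which ZBED6 is known to act on, no gene passed in any of the gonad tables. Igf2 in E18.5 testis was at 1039 ± 424 CPM (n = 4) in naturals and 694 ± 55.4 CPM (n = 6) in IVF, a difference of −0.58 (SE 0.28, adjusted p = 0.311), in the table where Zbed6 was higher. At 12 weeks, with Zbed6 lower, Igf2 was at 8.75 ± 1.37 CPM and 9.71 ± 2.22 CPM (0.15, SE 0.16, adjusted p = 0.751). Neither difference passed, and whether Igf2 moved with Zbed6 was not tested. The natural 1 library at E18.5 held hepatocyte markers at 439 CPM, and their part in the Igf2 values was not tested. In male liver 1 of 5 tested genes of this axis passed as higher, Igf1, the liver-derived growth factor, which rose by 0.98 on the log2 scale (SE 0.17, adjusted p = 0.000626). In female liver 3 of 8 passed as lower, Igf1 (−1.19, SE 0.17, adjusted p = 4.72e-05), the insulin receptor gene Insr (−0.34) and Igf2bp2 (−1.05), an mRNA-binding protein gene. The median difference of the list was 0.549 in male liver and −0.169 in female liver, beside −0.01 over all genes of each table. Of all genes, 16.1% passed as higher in male liver and 23.6% as lower in female liver. Fold changes of all genes ran with GC content in opposite directions in the livers, at rho −0.608 in males and 0.72 in females. With that trend removed, the genes called fell from 4124 to 2429 in males and from 6134 to 3256 in females. The genes of this and the later lists are given without its removal.

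The other ZBED genes listed, Zbed3, Zbed4 and Zbed5, were all tested in the 7 tables. Only Zbed5 in female liver passed, as lower (−0.64, SE 0.22, adjusted p = 0.0211), beside 23.6% of all genes lower there. Zbed4 differed by 0.44 at E18.5 (SE 0.21, adjusted p = 0.287) and by −0.16 at 12 weeks (SE 0.11, adjusted p = 0.595). Of 8 other BEACH domain genes, none passed at E18.5, at 39 weeks or in ovary. Lyst, the lysosomal traffic regulator, passed as lower at 12 weeks, at 30.5 ± 2.82 CPM (n = 5) in naturals and 22 ± 2.74 CPM (n = 5) in IVF (−0.47, SE 0.10, adjusted p = 0.033). The list median there was −0.238 and 1 of 8 genes was above 0, beside a median of 0.01 over all genes. The share of all genes that passed as lower there was 0.671%. Fold changes of all genes ran with transcript length at that age (rho −0.327), and the genes called fell from 150 to 8 with the length trend removed. The list is given without that removal, and the part of length in its values was not tested. Nsmaf passed as higher in F2 testis (0.38, SE 0.07, adjusted p = 0.00357), beside 1.61% of all genes in either direction. Nbeal2, the closest relative of Nbeal1 on the list, fell in male liver (−1.03, SE 0.25, adjusted p = 0.00454) and rose in female liver (0.97, SE 0.31, adjusted p = 0.0166), opposite in sign to Nbeal1 in the latter, and was at 0.31 (adjusted p = 0.293) and −0.10 (adjusted p = 0.793) at E18.5 and 12 weeks. Wdr81 had the smallest p of the list in both livers, lower in males (−1.54, SE 0.18, adjusted p = 6.81e-05) and higher in females (1.46, SE 0.18, adjusted p = 2.58e-05). With the sign of Nbeal1, Nbea (−1.41), Lrba (−0.53) and Nsmaf (−0.47) passed as lower in female liver. In all, 2 of 7 BEACH genes passed in male liver and 5 of 8 in female liver, beside 34.4% and 49% of all genes.

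Of 16 mRNA export genes, which work beside ZC3H11A, only Thoc2, a subunit of the THO complex, passed in the F1 tables, at 188 ± 19.7 CPM (n = 4) in naturals and 249 ± 14.2 CPM (n = 6) in IVF at E18.5 (0.40, SE 0.08, adjusted p = 0.0293). Of all genes, 0.818% passed as higher at E18.5. None of the export genes passed in F2 testis or ovary. In male liver 5 passed as higher and 2 as lower, and in female liver 3 as higher and 5 as lower, with Thoc1, Thoc2 and Thoc7 higher in males (1.5, 1.5 and 1.17) and lower in females (−1.63, −1.45 and −1.04). These 7 and 8 of 16 stand beside 34.4% and 49% of all genes. The opposite signs in the livers are given without removal of the GC trend, which also ran in opposite directions there. Of the 7 genes that sense or answer to sterols with NBEAL1, none passed in any gonad table. In male liver 4 of 7 passed as lower, among them Srebf2 itself (−1.5, SE 0.18, adjusted p = 6.81e-05), Scap (−1.19), which escorts it, and Insig1 (−1.12), which retains both in the endoplasmic reticulum, beside 18.4% of all genes lower. In female liver Srebf2 (1.01, SE 0.24, adjusted p = 0.00252) and Scap (1.05) passed as higher, 2 of 7 beside 25.4% of all genes higher.

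Noncoding RNAs taken as nuclear were listed because Zbed6 counts lie in an intron, and the location of these RNAs in the cell was not measured. At E18.5, 39 weeks, in F2 testis and in ovary none of the tested ones passed. Malat1, an abundant RNA of nuclear speckles, was at 1076 ± 851 CPM (n = 4) and 1475 ± 229 CPM (n = 6) at E18.5 (0.45, SE 0.42, adjusted p = 0.631), and at 763 ± 122 CPM and 842 ± 144 CPM at 12 weeks (0.14, SE 0.14, adjusted p = 0.736). Tug1 passed as lower at 12 weeks (−0.37, SE 0.08, adjusted p = 0.033), beside 0.671% of all genes. In livers, Malat1 was higher in IVF in males (1.05, SE 0.27, adjusted p = 0.00697) and lower in females (−1.16, SE 0.23, adjusted p = 0.000561), and Kcnq1ot1 went likewise (2.12 and −1.82). Neat1 ran the other way, at −0.80 in males (SE 0.31, adjusted p = 0.0555) and higher in females (1.06, SE 0.23, adjusted p = 0.00141). Of 6 tested, 3 passed in male liver (Meg3 the third, 1.25) and 4 in female liver, where Tug1 was also lower (−0.42), beside 34.4% and 49% of all genes.

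The genes beside each locus were followed at the ages that chose the members, where 1 of 11 passed at 12 weeks, beside 0.746% of all genes. The nearest genes on either side of Zc3h11a that were tested were Snrpe, Sox13, Etnk2, Lax1 and Atp2b4, and those of Nbeal1 were Carf, Wdr12, Ica1l, Cyp20a1, Abi2 and Raph1. At E18.5 none of these 11 passed, with differences of −0.36 to 0.44 around Zc3h11a and −0.02 to 0.54 around Nbeal1. At 12 weeks Atp2b4, a plasma membrane calcium pump gene, passed as lower (−0.31, SE 0.07, adjusted p = 0.0347) and the other 10 did not. In F2 testis Abi2 passed as lower (−0.29, SE 0.06, adjusted p = 0.024), beside 1.61% of all genes in either direction. At 39 weeks and in ovary none passed. In male liver 3 of 9 passed, Snrpe (0.87) and Raph1 (0.68) as higher and Etnk2 (−1.05) as lower, beside 34.4% of all genes. In female liver 6 of 9 passed, beside 49% of all genes. Around Zc3h11a these were Snrpe (−0.66), Sox13 (0.70) and Etnk2 (1.69). Around Nbeal1 they were Wdr12 (−0.46), Abi2 (−0.92) and Raph1 (−0.65), all 3 lower in IVF, beside 23.6% of all genes lower there. Nbeal1 was lower there too, but not with the GC or the length trend removed, and the neighbours are given without such removal.

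Markers of testis cell types were compared in the tables that chose the genes. At E18.5 none of the tested markers passed, and the 5 Sertoli markers summed to 2140 to 2963 CPM in naturals and 1616 to 2223 CPM in IVF. The 4 granulosa markers, of which Amh is also on the Sertoli list, summed to 1175 to 1695 CPM and 846 to 1152 CPM, without overlap. No share of all genes without overlap in this direction is set beside that sum, so it is a description. Hepatocyte markers reached 439 CPM in natural 1 and at most 14.9 CPM in the other 9 libraries, and without natural 1 the differences were 0.78 for Zbed6, 0.25 for Zc3h11a and 0.95 for Nbeal1. The fetal germ cell markers summed to 223 to 295 CPM and 224 to 386 CPM. At 12 weeks 1 of the 5 Leydig cell markers passed as higher, beside 15 of the 20113 genes tested. The list summed to 720 to 1106 CPM in naturals and 730 to 1401 CPM in IVF, and no other marker passed. Spermatid markers summed to 12568 to 14595 CPM and 12704 to 16268 CPM and spermatocyte markers to 773 to 820 CPM and 772 to 856 CPM, overlapping between groups. Their part in the Zbed6 and Nbeal1 values was not tested.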

How the data were processed

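Counts of reads per RefSeq gene, whole numbers with no normalization, were used as deposited by the authors for 72 libraries made with a stranded mRNA kit from whole tissue. The submitters' processing notes name mm10, Trimmomatic 0.32, STAR 2.3.0e, featureCounts 1.5.0 and DESeq2. Between 60.0% and 94.3% of low counts in a library were even, so that both reads of a pair may have been counted, and halved counts were tried. Reads shared between overlapping genes were not resolved further. Libraries were grouped by their labels, and total counts per library, 543745 to 90441392, set the precision.

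Within each table edgeR 4.0.16 in R 4.3.3 was run with its filter on low counts, TMM normalization and robust quasi-likelihood tests (two-sided), with Benjamini-Hochberg adjustment over all genes tested, and a call was an adjusted p under 0.05. Log2 CPM used a prior count of 2. The livers were joined in a sex by conception fit. Ratios used log2 of counts plus 0.5 and exact permutation tests, and relations between genes exact permutations within groups (SciPy 1.17.1). Alternatives were DESeq2 1.42.0, other filters, a 1.5-fold limit, removal of the trend with GC or length (splines with 4 df, GENCODE transcripts, known for 85.9% to 99.3% of tested genes), pairing by number and leaving out libraries. The edgeR step was tested on simulated data. Same-numbered libraries had correlations of −0.226 to 0.301, not all over 0.1 in any table, so that numbers do not pair samples.

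Promoter windows are from RefSeq (GRCm38.p6), with all 3 genes matched by symbol. The members and lists were chosen with earlier results of these data known. Named genes were the 3 members, list genes that passed (up to 3 by adjusted p in a comparison) with Igf2, Nbeal2, Zbed4 and Malat1 as fixed examples, 3 neighbours on each side, and the 5 genes most alike, of which 1 is not reported here. No label assigns a library to a litter, so p-values measure the spread between these samples, which may be partly technical.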

Additional observations from a re-analysis of the deposited data

Results flagged for a closer look

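Among 56 groups of 4 to 7 libraries, 6 values lay farther from the rest of their group than the 95% limit of Dixon's test, beside about 1 in 20 groups by chance. In 12-week testis the IVF 1 library had 19.93 CPM of Zbed6, with the other 4 IVF libraries at 8.438 to 10.42, and 21.73 Zbed6 counts per 100 Zc3h11a counts, with the others at 9.867 to 12.85. In 39-week testis the IVF 4 library had 31.81 CPM of Zbed6, with the others at 4.035 to 14.33. Zc3h11a was at 87.31 CPM in the IVF 1 female liver, with the others at 69.29 to 73.8, and at 257.9 CPM in the natural 3 ovary, with the others at 281.8 to 286.2. Nbeal1 was at 49.29 CPM in the IVF 5 ovary, with the others at 64.81 to 70.64. Without the IVF 1 library, the 12-week difference of Zbed6 was −1.22 and that of Nbeal1 −0.74.

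The Zbed6 difference between IVF and natural was 1.029 higher in male than in female liver on the log2 scale (adjusted p = 0.0352), which was found by a test of the interaction itself and was −0.19 with the GC trend removed. Median depth was lower in IVF than in naturals in male liver and higher in female liver, and its part was not tested.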

How the results depend on the processing

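Of 628 alternative values, 539 kept their direction and, where a test was made, their side of the threshold, or moved by less than the replicate spread, 37 lost and 3 gained the threshold, 2 moved and 47 changed sign. With the GC trend removed, Nbeal1 was at 0.62 at E18.5, −0.14 at 39 weeks, −0.75 in male liver (adjusted p = 0.0221) and 0.45 in female liver (0.116). Zbed6 was at −0.29 and −0.11 in male and female liver, and Zc3h11a at −0.081 at 39 weeks and −0.35 and 0.42 (0.0358) in male and female liver. The sex differences in liver were then −0.19, −0.78 (0.00722) and −1.19 (0.00293) for Zbed6, Zc3h11a and Nbeal1, and r of Zbed6 with Zc3h11a in F2 testis was −0.741 (0.0369). With the length trend removed, Nbeal1 was at −0.39 at 12 weeks and 0.00225 in female liver, Zbed6 at −0.64 (0.0724) there and Zc3h11a at −0.0086 at 39 weeks. The cause was not tested.

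With DESeq2 size factors, Zc3h11a at 39 weeks was −0.0093 and the Zbed6 sex difference 0.94 (0.0531), and by DESeq2 these were −0.0083 and 0.94 (0.0661), with Nbeal1 in female liver at −0.48 (0.0567). With no filter, Zbed6 and Nbeal1 in female liver were −0.74 (0.0635) and −0.44 (0.0848), Nbeal1 in ovary −0.0074 and the Zbed6 sex difference 0.96 (0.0582). With at least 10 counts in every library, Zbed6 and Nbeal1 in female liver were −0.74 (0.0502) and −0.45 (0.064), Zc3h11a in male liver −0.10 and its sex difference −0.11. Nbeal1 in female liver, at −0.49, was under the 1.5-fold limit, and in ovary it was −0.0051 with counts halved. Without the male livers of low depth the Zbed6 sex difference was 0.91 (0.0809). With near-identical pairs summed, chosen after seeing the data, Nbeal1 at 39 weeks was −0.0402 and the log2 ratio −0.26. Scaled to library totals, r of Zbed6 with Zc3h11a at 39 weeks was 0.0199. Without the 2 farthest libraries, r of Zbed6 with Nbeal1 was −0.355 at E18.5 and 0.533 in male liver, and with Zc3h11a 0.714 at E18.5, −0.067 at 12 weeks and −0.266 in male liver.

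The replicate numbers did not pair the libraries, with 0 pairs correlated over 0.1 in 5 tables, 2 of 4 at 39 weeks and 1 of 5 in female liver. With the replicate block, Zbed6 was at 0.15 at 39 weeks and −0.60 in female liver (0.197), Nbeal1 at −0.41 in female liver (0.204) and Zc3h11a at −0.0158 in F2 testis.

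Leaving out 1 library gave, at 39 weeks, −0.63 to 0.59 for Zbed6, −0.0914 to 0.0587 for Zc3h11a, −0.10 to 0.76 for Nbeal1 and −0.33 to 0.85 for the log2 ratio. It gave −0.17 to 0.12 for Nbeal1 in male liver, −0.93 to −0.59 for Zbed6 and −0.58 to −0.31 for Nbeal1 in female liver, −0.12 to 0.00301 for Zc3h11a and −0.0431 to 0.0816 for Nbeal1 in ovary, and 0.86 to 1.19 for the Zbed6 sex difference.

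Genes called over all alternatives, the main count first, were 181 (1 to 893) at E18.5, 150 (8 to 419) at 12 weeks, 2 (1 to 180) at 39 weeks, 345 (134 to 739) in F2 testis, 4124 (1946 to 4571) in male liver, 6134 (3256 to 6671) in female liver, 0 (0 to 153) in ovary and 7056 (2885 to 7406) for the sex difference. The smallest counts at E18.5 and in female liver came with the GC trend removed, at 12 weeks with the length trend removed, and the largest of each table with DESeq2. Depth limits the male livers most, where 1 library held 4 counts of Zbed6.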
